A study of Mus musculus with 108 samples.

Results

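State 7 is the chromatin state of mouse liver that ChromHMM learned with a weak H3K4me3 signal, a minimal H3K27me3 signal and neither H3K27ac nor H3K4me1. The bins described here are the autosomal bins of 200 bp that were labelled state 7 in each of the groups SD 3m, SD 12m, CR 12m, and they are called kept bins. There were 118487 kept bins (23.7 Mb) among 12313718 autosomal bins, or 0.962% of them, and adjacent kept bins formed 4503 stretches. They made up 50.2% of the 236250 autosomal bins in state 7 in SD 3m. The members were selected on the measured labels themselves, so the shares of state 7 they retained are given as a description.

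The 4 histone marks were profiled by ChIP-seq in formalin-fixed, paraffin-embedded livers of inbred C57BL/6 female mice. SD 3m comprised 30 libraries from 8 mice on standard diet aged 3 months, SD 12m comprised 29 libraries from 8 mice on the same diet aged 12 months, and CR 12m comprised 29 libraries from 9 mice aged 12 months whose calories had been restricted by 30% since the age of 3 months. The libraries of a group were merged for each mark before states were assigned, so there was 1 segmentation per group, no replicate, and no test across mice. In whole liver, a mark that is weak in most cells and a mark that is strong in few cells cannot be told apart. All 10 hepatocyte markers had their transcription start site (TSS) in states 1 to 5, the promoter and enhancer states, in each of the groups, and the 4 genes of other organs had none there. The TSS was in state 7 in at least 1 group for 3 of 4 endothelial markers, 1 of 4 Kupffer cell markers (Cd5l) and 1 of 4 cholangiocyte markers (Sox9), but for none of the hepatocyte, stellate cell and lymphocyte markers, and no marker of a liver cell type had a kept bin. Intervals of shares are Wilson 95% intervals over bins or genes. Those of median lengths are binomial 95% intervals over stretches. All intervals cover counting error only and are too narrow, because neighbouring bins are not independent, and the read depth behind a label is unknown. Several kept stretches can also lie in the same longer stretch of state 7.

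H3K4me3 is best known from active promoters and H3K27me3 from regions silenced by Polycomb complexes, while state 7 lies mostly far from promoters. Zinc finger genes, to which many of the longest kept stretches belong, encode DNA-binding proteins, many of which silence transposable elements. Their fingers are written in the DNA as a row of similar units, and many of these genes arose by duplication and stand in clusters on the chromosomes. Clustered protocadherins are adhesion molecules of neurons, and vomeronasal and olfactory receptors are the pheromone and odour receptors of the nose.

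Sequences from 4 of the 5 longest stretches show what a kept region looks like in letters. Each run is the middle 300 bases of a stretch on the plus strand of GRCm38.p6 (mm10), with CG dinucleotides, the site of DNA methylation, in capitals. The middle of the longest stretch of all lies in the untranslated end of the last exon of Zfp982 and is not printed. The 148 kb stretch has its middle in the pseudogene Gm2544, chr13:12870851-12871150, without a CG.
middle of the 148 kb stretch: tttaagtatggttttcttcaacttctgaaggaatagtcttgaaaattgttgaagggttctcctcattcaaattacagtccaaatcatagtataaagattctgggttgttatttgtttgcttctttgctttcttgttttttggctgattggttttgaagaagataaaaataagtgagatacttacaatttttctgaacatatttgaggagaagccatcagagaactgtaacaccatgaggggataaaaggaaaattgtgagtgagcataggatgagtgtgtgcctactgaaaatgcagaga
The 119 kb stretch has its middle in Zfp977, chr7:42582551-42582850, again without a CG.
middle of the 119 kb stretch: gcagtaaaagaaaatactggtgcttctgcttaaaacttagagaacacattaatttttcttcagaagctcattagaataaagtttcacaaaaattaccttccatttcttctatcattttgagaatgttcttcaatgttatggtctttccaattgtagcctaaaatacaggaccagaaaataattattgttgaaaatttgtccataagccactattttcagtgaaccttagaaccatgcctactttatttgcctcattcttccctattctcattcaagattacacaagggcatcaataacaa
The middle of the 99.6 kb stretch, chr17:22758851-22759150, lies between genes, is repeat sequence in all its bases and has 1 CG.
middle of the 99.6 kb stretch: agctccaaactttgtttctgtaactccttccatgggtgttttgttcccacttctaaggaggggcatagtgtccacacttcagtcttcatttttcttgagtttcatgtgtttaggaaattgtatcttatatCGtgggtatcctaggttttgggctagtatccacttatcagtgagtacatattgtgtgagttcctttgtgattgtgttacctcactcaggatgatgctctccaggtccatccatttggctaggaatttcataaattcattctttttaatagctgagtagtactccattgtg
The middle of the 96 kb stretch, chr4:145557851-145558150, lies between genes and has 1 CG.
middle of the 96 kb stretch: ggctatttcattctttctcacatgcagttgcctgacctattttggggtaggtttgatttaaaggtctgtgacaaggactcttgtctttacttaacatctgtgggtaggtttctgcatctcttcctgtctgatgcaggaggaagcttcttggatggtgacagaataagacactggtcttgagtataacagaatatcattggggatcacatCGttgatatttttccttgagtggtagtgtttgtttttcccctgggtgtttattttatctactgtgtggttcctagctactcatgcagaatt
These windows are AT-rich, with a GC content of 34.3%, 32%, 39.7% and 41% in the order printed, against 41.9% for all autosomal bins.

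A coding window of Zfp458 shows the row of zinc finger units that kept bins hold. It lies at chr13:67257182-67257481 and is printed on the minus strand, the coding strand of the gene. All 300 bases are coding. The capitals mark 4 copies of a 12-base word, which start at positions 37, 121, 205 and 289 counted from 1 at the 5′ end, each 84 bases after the one before.
Zfp458 finger units: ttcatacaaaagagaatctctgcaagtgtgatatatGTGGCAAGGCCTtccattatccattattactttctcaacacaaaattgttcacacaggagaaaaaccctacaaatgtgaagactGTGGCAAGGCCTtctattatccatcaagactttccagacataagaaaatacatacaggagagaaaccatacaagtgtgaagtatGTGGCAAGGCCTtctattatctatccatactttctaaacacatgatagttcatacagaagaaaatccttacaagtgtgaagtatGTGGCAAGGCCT
Zfp458 was chosen after its values were seen, because it had the most copies of the word in 300 coding bases of kept bins. Of this gene, 59.2% was kept, while state 7 covered 62.6% of it in SD 3m, 86.5% in SD 12m, against 80.7% in CR 12m.

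Kept stretches were short for the most part, with a median length of 3200 bp (95% interval 3000 to 3200), quartiles of 1400 and 5400 bp, and extremes of 200 bp and 150.2 kb. The few long ones held a large part of the sequence. The 574 longest stretches, 12.8% of all, held 50% of the kept bins, the 100 longest, each of at least 30.6 kb, held 21.3%, and the 34 stretches above 50 kb held 10.7%. Single bins made up 87 of the stretches. In 1744 stretches (38.7%) the kept stretch was the whole SD 3m stretch, so no bin of it had another state in either group of 12 months.

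More of SD 3m state 7 was kept in longer SD 3m stretches. The kept share was 22.8% (22.0 to 23.7) in the 2225 stretches of up to 1 kb, 33.1% in those of up to 5 kb, 48.9% in those of up to 20 kb and 75.8% in those of up to 50 kb. It reached 89.4% (88.9 to 89.8) in the 50 stretches above 50 kb, all of which had a kept bin. Short SD 3m stretches thus seldom reached both groups of 12 months as state 7, and 24.4% of those of up to 1 kb had any kept bin. Of the SD 3m bins that were not kept, 52913 (22.4% of SD 3m state 7) stayed in state 7 in SD 12m only, 6258 (2.65%) in CR 12m only, and 58592 (24.8%) in neither. State 8, which has none of the marks, held 45942 of the last kind in both groups.

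The stretch of state 7 around a kept stretch was longest in SD 12m. Its median length was 4800 bp (4600 to 4800) in SD 3m, 13600 bp (13000 to 14400) in SD 12m, with 7200 bp (7000 to 7400) in CR 12m. All state 7 stretches of these groups, kept or not, had medians of 3000, 6400 and 4400 bp. The order of the groups was thus not particular to kept stretches. SD 12m was longer than SD 3m around 3463 stretches (76.9%) and shorter around 957, with a median ratio of 2.37. CR 12m was longer than SD 3m around 2728 (60.6%) and shorter around 1685, with a median ratio of 1.31. SD 12m was longer than CR 12m around 3571 (79.3%). The same 2 ends in all groups occurred at 8 stretches. Each ratio uses the same SD 3m stretch. SD 12m also had the most merged libraries of the marks that define state 7, with 8 for H3K4me3, against 7 in SD 3m and 5 in CR 12m, and 8 for H3K27me3, against 7 and 6. The part of these numbers in the lengths was not tested.

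**Figure D1:**
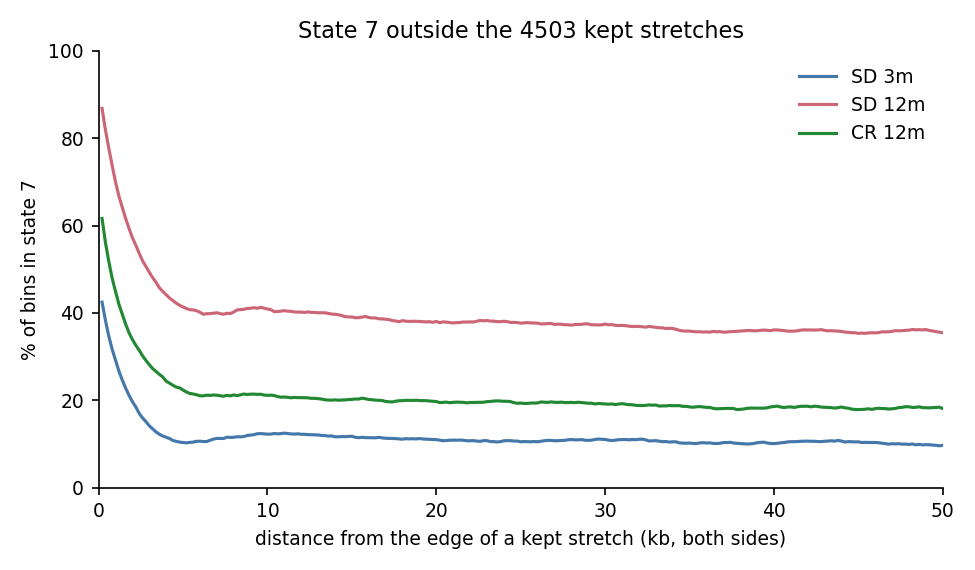
Percent of bins in state 7 (vertical axis) against the distance in kb from the edge of a kept stretch, both sides together, for SD 3m, SD 12m and CR 12m. SD 12m lies above CR 12m and CR 12m above SD 3m at all distances drawn, with 40.9%, 21.2% and 12.3% at 10 kb. Positions inside other kept stretches are included. The first bin outside a stretch has, by the rule, another state in at least 1 group.

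Beyond the edges, state 7 fell off within about 5 kb and then stayed nearly level. In the first bin outside a stretch it held 42.5% of positions in SD 3m, 86.8% in SD 12m, with 61.6% in CR 12m. By the rule this bin has another state in at least 1 group, so its shares follow in part from the rule. At 5 kb the shares were 10.4%, 41.4% and 22.4%, and at 50 kb they were 9.72%, 35.5% and 18.1%. These levels stand against 1.92%, 11.9% and 4.35% of all autosomal bins, so each group had more state 7 around kept stretches than in the autosomes as a whole. Positions inside other kept stretches were counted too, and these are in state 7 by the rule. Their part in the excess was not tested. State 8 was the main neighbour, with 83.3% of positions at 5 kb in SD 3m, 51.2% in SD 12m, against 71.2% in CR 12m.

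**Figure D2:**
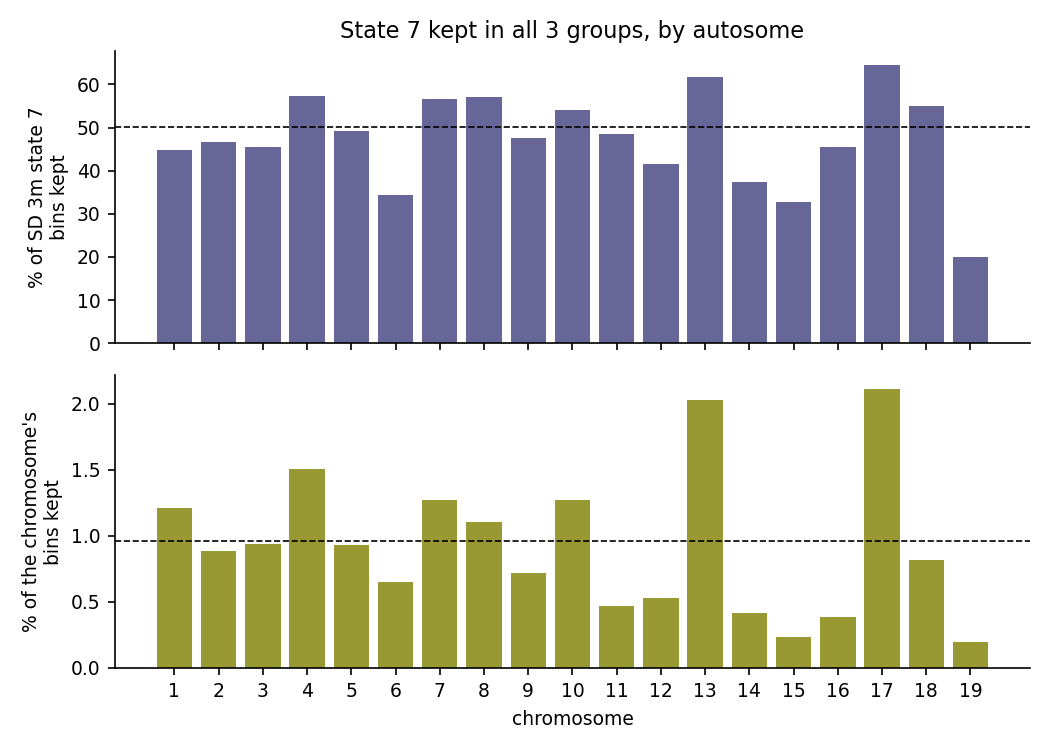
Upper panel, percent of SD 3m state 7 bins that were kept on each autosome, with a dashed line at 50.2%. Lower panel, percent of all bins of the chromosome that were kept, with a dashed line at 0.962%. Chromosomes 13 and 17 stand highest and chromosome 19 lowest in both panels.

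Kept bins were unevenly spread over the autosomes. They covered from 0.196% of chromosome 19 to 2.11% of chromosome 17, with 2.03% of chromosome 13 and 1.51% of chromosome 4 next. The share of SD 3m state 7 that was kept ran from 19.9% on chromosome 19 to 64.6% on chromosome 17. Within chromosomes the bins were concentrated. Of 2473 blocks of 1 Mb, 1032 had no kept bin, 100 blocks held 50% of all kept bins, and the 10 richest held 16.5%. The richest block was chr13:62000001-63000000, of which 53.0% was kept, with 3 Zfp genes among 39 annotated genes. It was followed by chr4:147000001-148000000 with 51.3% and 9 Zfp genes, and by chr17:22000001-23000000 with 49.2% and 6 Zfp genes. In these blocks 92.0%, 98.8% and 92.2% of SD 3m state 7 was kept.

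The 10 longest stretches lay mainly over zinc finger genes, pseudogenes and protocadherins. The longest, chr4:147438801-147589000, spanned 150.2 kb and held the whole of Zfp982 (chr4:147443114-147516064) and Zfp985 (chr4:147553277-147585201) with 4 pseudogenes. State 7 around it measured 151.6, 150.2 and 151.6 kb in SD 3m, SD 12m, CR 12m, nearly the same size. The stretches of rank 5, 6 and 10 lay on the same chromosome, at chr4:145510001-145606000 over Zfp990 and part of Gm13212, at chr4:147218801-147309800 over parts of Zfp978 and Zfp988, and at chr4:146424801-146503800 over Zfp992 and part of Zfp981. The third, chr7:42523201-42642200, held Zfp977 whole and 97.7% of Zfp976.

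The other long stretches were of other kinds. The second, chr13:12797001-12945000, ran for 148 kb with 13.7% of it in genes, namely the start of Prl2c3, which encodes a proliferin, a prolactin-like hormone of the placenta, the lncRNA Gm40904 and 3 pseudogenes. The fourth, chr17:22709201-22808800, overlapped 3 pseudogenes and a lncRNA and no protein-coding gene. The seventh, chr17:85234201-85316000, lay wholly within Camkmt, which encodes a calmodulin methyltransferase. The eighth, chr18:37654601-37735400, overlapped 15 protein-coding genes of the gamma protocadherin cluster. The ninth, chr11:121817801-121897400, held the whole of Ptchd3, a patched-domain gene known from sperm, with a snoRNA and a lncRNA. Among the 10 stretches the share of 50-base windows that occur once in the assembly went from 33.1% for the sixth to 95.9% for the eighth, and GC content from 38.1% for the second to 44.0% for the eighth. Around the seventh stretch, state 7 measured 81.8 kb in SD 3m, 214.8 kb in SD 12m, with 211.4 kb in CR 12m.

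Zinc finger genes held more kept state 7 than their share of the genome. Of 406 Zfp genes, 153 (37.7%, 33.1 to 42.5) had at least 1 kept bin, and the background over all 46709 annotated autosomal genes was 1405 genes, or 3.01%. At least 10% of the gene was kept in 145 Zfp genes (35.7%), with a background of 762 genes, or 1.63%. Zfp genes took up 0.539% of autosomal bins and 8.93% of kept bins, 16.6 times their genome share, and their median length was 17.3 kb, beside 6.31 kb for all genes. They took up 2.01% of the bins lost from state 7 in both groups of 12 months and 0.291% of those gained in both, that is in state 8 in SD 3m and state 7 later.

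Within Zfp genes, the extent of state 7 differed less among the groups than outside genes. It covered 19.8% of their bins in SD 3m, 22.0% in SD 12m, against 18.4% in CR 12m, whereas outside annotated genes it covered 2.34%, 17.5% and 6.32%. Of the SD 3m state 7 in Zfp genes, 80.6% (79.9 to 81.2) was kept, compared to 49.5% (49.1 to 49.9) in other protein-coding genes, 61.8% in olfactory and vomeronasal receptor genes and 47.8% outside annotated genes. The genes varied among themselves. Of 184 Zfp genes with SD 3m state 7, 60 kept at least 90% of it, 31 kept none, and the median gene kept 73.2%. A further 146 genes are named zinc finger proteins by their product only, a list added after values were seen, and 34 of them (23.3%) had a kept bin.

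The clusters of Zfp genes differed as well. Of 17 groups of at least 5 Zfp genes no more than 250 kb apart, 12 had at least 10% of their length kept, and 3 had no kept bin. Of all 2473 blocks of 1 Mb, 38 had at least 10% kept and 1032 had no kept bin, but the clusters are of other lengths. In the clusters together 25.65% of bins were kept, beside 0.962% of all autosomal bins. The richest, chr4:146449030-147849126 with 12 Zfp genes, had 675.4 kb kept (48.2%), and 99.5% of its SD 3m state 7 was kept. The cluster chr17:21383707-22456689 with 18 Zfp genes had 472.5 kb kept (44.0%), and 86.1% of its SD 3m state 7. The cluster with the most Zfp genes, 24 at chr13:67038594-67827000, was in state 7 over 59.2% of its length in SD 3m, 50.3% in SD 12m, with 37.1% in CR 12m, and 57.0% of its SD 3m state 7 was kept. A smaller share was thus kept there than in the first 2 clusters. The 3 clusters without a kept bin, at chr6:47815536-48086986, chr7:4915181-5053723 and chr7:127233061-127885996, had no state 7 in SD 3m.

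**Figure D3:**
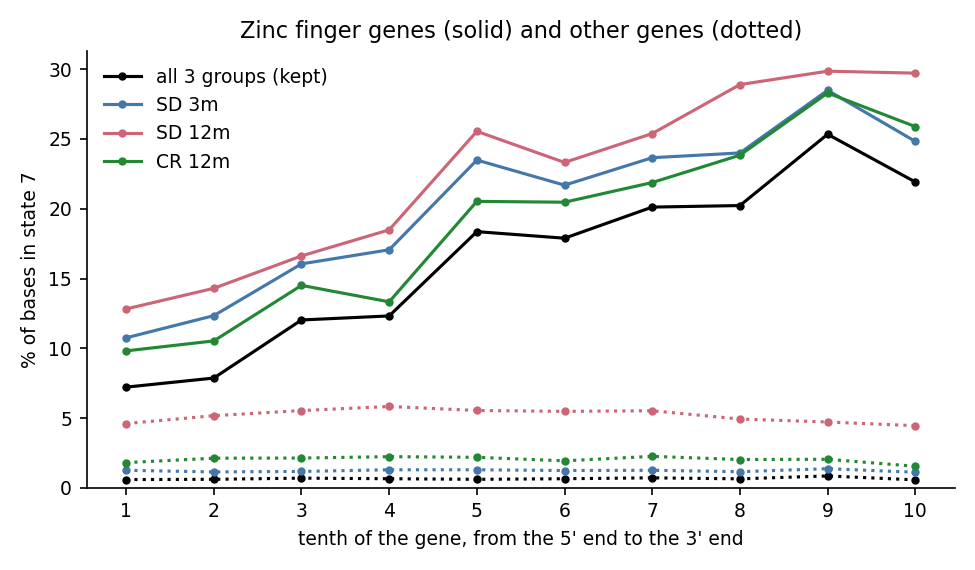
Percent of bases in state 7 (vertical axis) in each of 10 equal parts of the gene from its 5′ end to its 3′ end, for 369 zinc finger genes (solid lines) and 15679 other protein-coding genes (dotted lines) of at least 5 kb, in each group and in all 3 groups. In zinc finger genes the kept share goes from 7.22% in the first part to 25.3% in the ninth, and in other genes it stays between 0.572% and 0.852%.

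Along zinc finger genes, kept state 7 was more frequent towards the 3′ end. In 369 protein-coding Zfp genes of at least 5 kb, each cut into 10 equal parts, 7.22% of the bases of the first part were kept, 18.4% of the fifth, 25.3% of the ninth and 21.9% of the last. Each group taken alone showed the same order, with 10.8% in the first part and 28.5% in the ninth in SD 3m, 12.8% and 29.9% in SD 12m, then 9.82% and 28.3% in CR 12m. Among the rest, the 15679 other protein-coding genes of that size had between 0.572% and 0.852% in any part. At the ends themselves, the bin of the last base was kept in 30.6% of the Zfp genes and the TSS bin in 4.07%.

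Most of the same genes, but not all, had a promoter label at their start. Of the 369 Zfp genes, 65.3% had their TSS in state 1 or 2, the promoter states, in SD 3m, 54.5% in SD 12m, with 51.0% in CR 12m. Of the other genes, 47.3%, 39.8% and 34.9% had it there. Of the 113 Zfp genes whose last base was kept, 79 (69.9%) had the TSS in state 1 or 2 in SD 3m, 58 in SD 12m, with 62 in CR 12m. Of the 256 Zfp genes whose last base was not kept, 63.3% had it there in SD 3m, 55.9% in SD 12m, 49.2% in CR 12m. A promoter state at the 5′ end and state 7 at the 3′ end thus occurred together in most of the 113 genes. The shares, 69.9% in SD 3m, 51.3% in SD 12m, 54.9% in CR 12m, were near those of the other 256 genes. In SD 12m they were below them. A promoter state at the start was thus not particular to genes with a kept last base. The 2 sets differed in state 7 at the start. In SD 3m the TSS was in state 7 in 18.6% of the 113 genes, beside 3.125% of the 256.

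Long protein-coding genes wholly in kept bins were mostly zinc finger genes. There were 15 protein-coding genes of at least 10 kb with every base kept, and 11 of these were Zfp genes or zinc finger genes by product. The 10 longest were Zfp982 (72951 bp), Zfp951 (57912 bp), Zfp985 (31925 bp), Zfp995 (31179 bp), BC024063 (29814 bp), Zfp990 (27493 bp), Zfp992 (20411 bp), Gm6871 (16617 bp), Gm36298 (13662 bp) and Gm5141 (13609 bp). In these genes exons and introns alike were in state 7 in all groups. Zfp951 lay at chr5:104802246-104860157, Zfp995 at chr17:21878907-21910085 and BC024063 at chr10:82083320-82113133. Counting genes of any size and type, 261 were wholly kept, of which 35 were protein-coding.

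Short words showed the zinc finger rows from the sequence side. The 12-base words with at least 60 occurrences in kept bins were ranked by their share in kept bins, outside repeats. The word GTGGCAAGGCCT, counted on both strands, led with 92 of its 379 occurrences in kept bins (24.3%), 30.8 times the 0.788% of all 12-base windows that were kept. These occurrences stood in 24 stretches, 88 of them (95.7%) lay in Zfp genes, and of 67 pairs of neighbours within 1 kb, 65 (97.01%) were spaced by a multiple of 84 bases. The window of Zfp458 above shows 4 of them. The stretch with the most, 13 copies, was chr13:67611001-67632000 over Zfp729a. Overlapping words of the same finger unit, such as TGTGGCAAGGCC with 97 of 476 occurrences and TGAAGTATGTGG with 61 of 432, ranked close behind. A match is a description of the letters only.

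Other leading words came from single arrays. The word AGGCTACCAAAG had 73 kept occurrences, 71 of them in 1 stretch of 13.4 kb without an annotated gene, chr12:5048001-5061400. ATTGTCTGTTGG had 60, of which 54 stood in a stretch within Grip1, chr10:119890001-119900400, and 53 of its neighbours there were 28 bases apart. Neither word had a kept occurrence in a Zfp gene. Among 6-base words, ATATTG with its complement CAATAT had the highest frequency in kept bins relative to the autosomes, 1.35 times, and CGCGCG the lowest, 0.380 times.

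**Figure D4:**
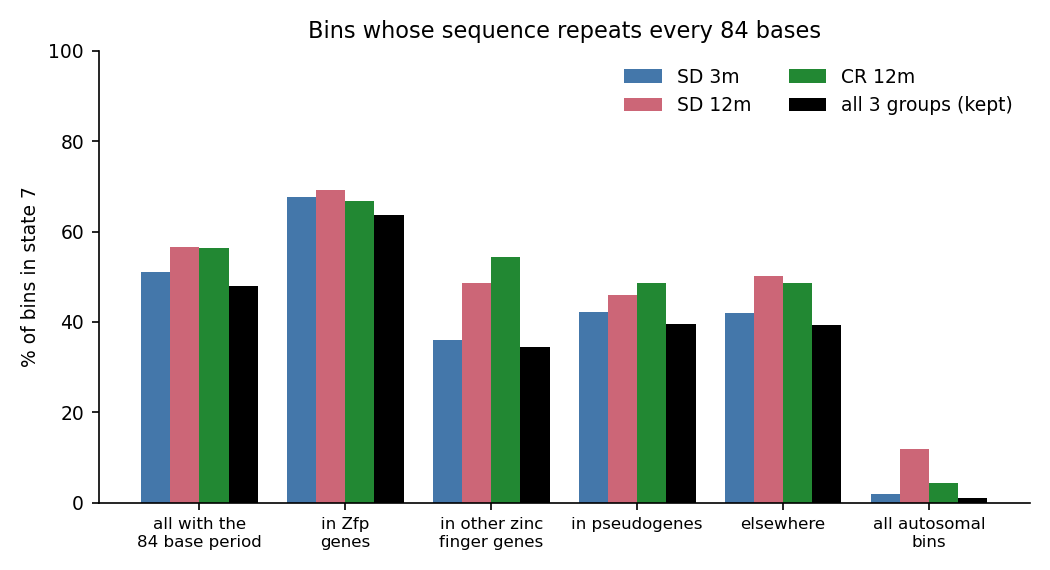
Percent of bins in state 7 (vertical axis) for bins whose sequence repeats every 84 bases, all together and by location, and for all autosomal bins, with bars for SD 3m, SD 12m, CR 12m and all 3 groups. The bars of the first group stand between 48.0% and 56.6%, and those of all autosomal bins between 0.962% and 11.9%.

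The 84-base period was then searched in all bins, whatever their gene, a search added after the words were seen. Those words had been ranked by their share in kept bins, so the period was not chosen apart from the labels. A bin counted where at least 60% of its bases equalled the base 84 positions further on and fewer than 50% did so at shifts of 28, 42, 60 and 70 bases. There were 2967 such autosomal bins, and 1423 of them were kept (48.0%, 46.2 to 49.8), beside 0.962% of all autosomal bins. State 7 held 51.0% of them in SD 3m, 56.6% in SD 12m, against 56.3% in CR 12m, so the groups were close to each other there. Of those in state 7 in SD 3m, 94.1% were kept.

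The period did not have to lie in a Zfp gene. In Zfp genes 718 of 1126 bins with the period were kept (63.8%, 60.9 to 66.5), beside 15.9% of all bins in Zfp genes. Of the bins with the period, 132 of 384 (34.4%) were kept in other zinc finger genes. In pseudogenes 149 of 377 (39.5%) were kept, and elsewhere 424 of 1080 (39.3%). Kept bins with the period were found on 17 autosomes. Bins with the period remained few, 1.20% of all kept bins and 6.79% of the kept bins in Zfp genes, so most of the kept sequence had no such row. Among the bins gained in both groups of 12 months, 0.0453% had the period, and among all autosomal bins 0.0241%. In 758 of the 1423 kept bins, all 4 sampled 50-base windows occurred once in the assembly.

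**Figure D5:**
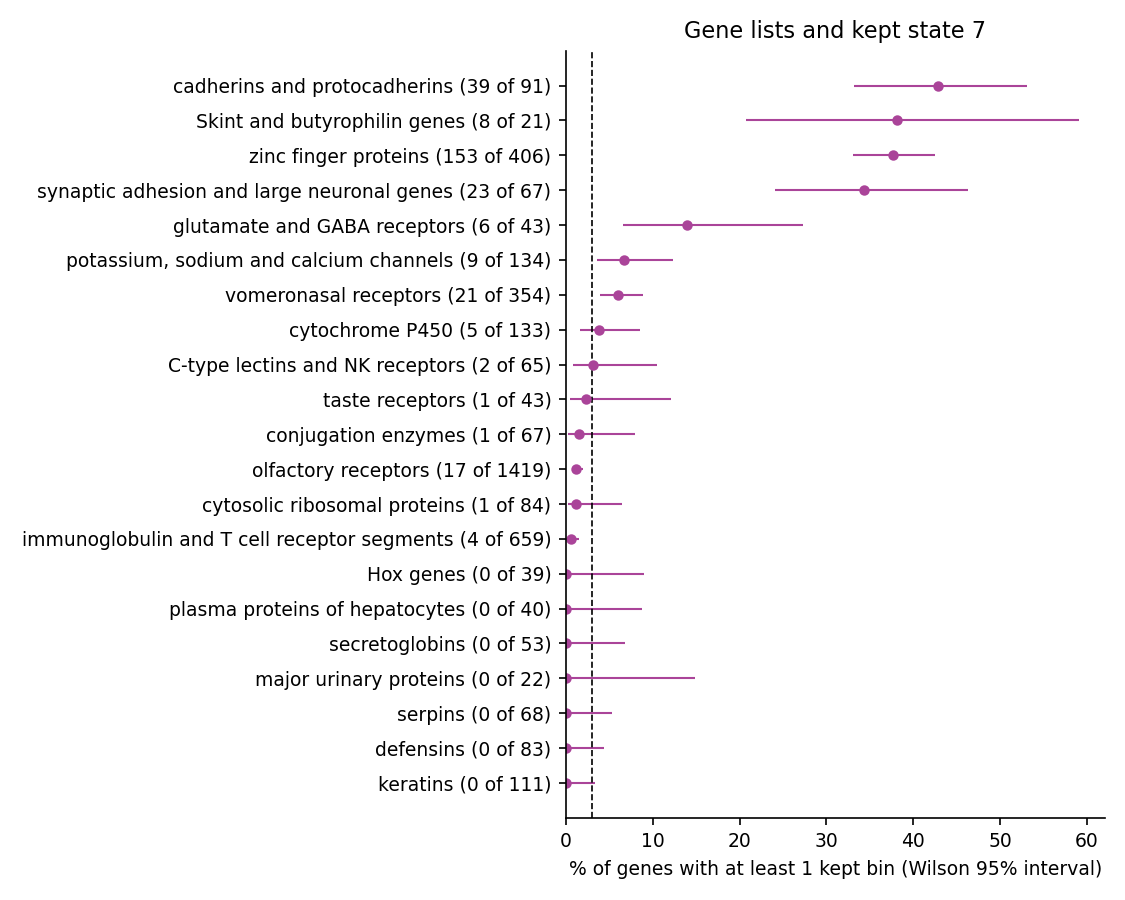
Percent of the genes of each list with at least 1 kept bin (points) and Wilson 95% intervals (lines), with the numbers in brackets and a dashed line at 3.01%, the share of all annotated autosomal genes. Cadherins, Skint and butyrophilin genes, zinc finger genes and large neuronal genes stand between 34.3% and 42.9%, and 7 lists stand at 0.

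Beyond zinc finger genes, 3 lists had more than 30% of genes with a kept bin. Of 91 cadherins and protocadherins, 39 had one (42.9%, 33.2 to 53.1), beside 3.01% of all genes. Of these 91, 16 (17.6%) were kept over at least 10%, beside 1.63% of all genes. Their median length was 94 kb, beside 6.31 kb for all genes. The gamma protocadherin genes share their last exons and overlap, so that 1 kept stretch counts for several of them. The interval counts such genes as separate. In the clustered protocadherin genes, state 7 covered 27.4% of bins in SD 3m, 52.5% in SD 12m, with 44.4% in CR 12m, and 82.4% of the SD 3m state 7 was kept. State 7 thus covered more of these genes in both groups of 12 months, with 75026 bp kept of Pcdhga1, 67874 bp of Pcdhga2 and 62466 bp of Pcdhga3. Of 21 Skint and butyrophilin genes, which are immunoglobulin-like genes, 8 (38.1%) had a kept bin, at a median gene length of 18.8 kb. Of Skint4, 22000 bp (22.9%) were kept. Of Skint5, 9.03% was kept, while state 7 covered 16.3% in SD 3m, 77.8% in SD 12m, against 31.1% in CR 12m.

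Large neuronal genes were kept over a small part of their length. Of 67 such genes, with a median length of 808.7 kb, 23 had a kept bin and none was kept over 10% or more. Lrp1b, a large endocytic receptor, had 24000 bp kept (1.166%), while state 7 covered 1.80% of it in SD 3m, 73.2% in SD 12m, with 22.8% in CR 12m. Cntn5, a neuronal adhesion protein, had 1.76% kept. Per base, 0.478% of this list was kept, below the 0.882% of all genes. Of 43 glutamate and GABA receptors, 6 (13.95%) had a kept bin, among them Grik2 with 9000 bp. Of 134 potassium, sodium and calcium channels, 9 (6.72%) did, led by Kcnq1 and Kcnq1ot1 with the same 7600 bp, since these genes overlap. The share of all genes was 3.01%. Median lengths were 137.5 and 47.4 kb, beside 6.31 kb for all genes, and none was kept over 10% or more. Per base, 0.1595% and 0.1974% of these lists were kept, also below all genes.

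The receptor genes of the nose were in state 7 mostly at 12 months. Per base, 3.73% of the vomeronasal receptor genes and 0.640% of the olfactory receptor genes were kept, beside 0.882% of all genes. Of 354 vomeronasal receptors, 21 had a kept bin (5.93%, 3.91 to 8.90), although state 7 covered 6.65% of their bases in SD 3m, 31.7% in SD 12m, against 17.8% in CR 12m. Vmn2r57 on chromosome 7 had 89.4% of its 48910 bp kept and 89.4%, 90.6% and 89.4% in state 7 in the 3 groups. Of 1419 olfactory receptors, 17 had a kept bin (1.20%, 0.749 to 1.91), with 1.83%, 23.9% and 8.50% of bases in state 7. Olfr57, a single-exon gene of 1080 bp, was wholly kept. For both families most of the state 7 of SD 12m was thus outside kept bins.

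Secreted liver proteins and several other families had no kept bin. It was found in none of 40 plasma protein genes, 68 serpins, 22 major urinary proteins, 53 secretoglobins, 83 defensins, 111 keratins or 39 Hox genes. The upper limits of their intervals, from 3.35% for keratins to 14.9% for major urinary proteins, lie above the 3.01% of all genes, so a lower share than in all genes was not detectable in these lists. Of 133 cytochrome P450 genes, 5 had a kept bin, led by Cyp2j8 with 19600 bp (30.9%), and state 7 covered 8.64% of the bases of this list in SD 3m, 2.39% in SD 12m, with 1.78% in CR 12m. Cyp2c39 was in state 7 over 35.5% in SD 3m, 9.21% in SD 12m, against 5.25% in CR 12m, and 4.80% was kept. P450 genes thus had the most state 7 in SD 3m, whereas the protocadherins had the least there. Of 67 conjugation enzymes, 1 had a kept bin, the sulfotransferase gene Sult2a4 with 37.3%. Among the rest were 4 of 659 immunoglobulin and T cell receptor segments, 2 of 65 C-type lectins and NK receptors, 1 of 84 ribosomal protein genes and 1 of 43 taste receptors.

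A few single genes held large amounts of kept sequence. Wwox (chr8:114439635-115352712), an oxidoreductase gene over a common fragile site, had the most kept bases, 257200 bp (28.2%) in 21 stretches, with none in its exons. State 7 covered 28.7% of Wwox in SD 3m, 55.6% in SD 12m, with 59.9% in CR 12m, so almost all of its SD 3m state 7 was kept and about as much was added in each group of 12 months. Camkmt (chr17:85090561-85458589) was alike, with 134800 bp kept (36.6%), none in exons, and 36.8%, 68.2% and 66.7% in state 7. Smyd3, a lysine methyltransferase gene, had 81800 bp kept (14.5%), Grip1, a scaffold protein gene of synapses, 80000 bp (12.6%), and Tenm3, a teneurin gene, 96200 bp (7.42%).

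In Sntg1 and Ttn the pattern differed. Sntg1, a syntrophin gene, was in state 7 over 31.0% in SD 3m, 36.3% in SD 12m, against 11.9% in CR 12m, and 85200 bp (9.05%) were kept. Ttn (chr2:76703980-76982557), which encodes the muscle protein titin, had 82000 bp kept (29.4%), equal to its whole SD 3m state 7, in 2 stretches. In Ttn 69.7% of exon bases and 12.7% of intron bases were kept, whereas Wwox, Camkmt and Sntg1 had no kept exon base. The genes Gm37013, Gm38666 and Gm38667 span the whole protocadherin region of chromosome 18, share their kept bins, and had 227400, 227400 and 226399 bp kept.

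Kept TSS were rare. Of 24963 autosomal TSS, 105 lay in a kept bin (0.421%), 89 of them of protein-coding genes, while 374 TSS were in state 7 in SD 3m, 898 in SD 12m, with 349 in CR 12m. Protocadherins had 18 of 68 TSS kept (26.5%), Zfp genes 12 of 394 (3.05%), vomeronasal receptors 8 of 356 (2.25%) and olfactory receptors 7 of 1119 (0.626%). Those in the longest stretches were Zfp982, Zfp985, Prl2c3, Zfp977, Zfp990, Gm13212, Zfp988, Pcdhga1, Pcdhga2, Pcdhga3, Pcdhgb1, Pcdhga4, Pcdhgb2, Pcdhga5 and Pcdhga6. In a list of 31 imprinted genes, added after values were seen, the TSS of Mkrn3, Peg3, Snurf and Usp29 were kept, all on chromosome 7. At Peg3 and Usp29, which start next to each other, 1062 and 842 bp were kept, and at Mkrn3 953 bp. The prolactin family, added likewise, had 3 kept TSS of 25, those of Prl2c3, Prl4a1 and Prl7a2.

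The promoter sequences of 2 kept TSS in long stretches are shown because they differ in CG content. They are the 250 bases before the TSS, taken from RefSeq sequence tables of GRCm38.p6, 5′ to 3′ on the strand of the gene, with CG in capitals. Zfp982, chr4:147442864-147443113 on the plus strand, has 11 CG, most of them near the TSS.
Zfp982: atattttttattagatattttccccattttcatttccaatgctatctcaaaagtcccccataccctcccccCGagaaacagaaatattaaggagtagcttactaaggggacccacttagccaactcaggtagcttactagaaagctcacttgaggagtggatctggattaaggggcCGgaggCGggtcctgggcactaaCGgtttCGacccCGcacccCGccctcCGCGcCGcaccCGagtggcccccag
Prl2c3, chr13:12800080-12800329 on the minus strand, has 1 CG.
Prl2c3: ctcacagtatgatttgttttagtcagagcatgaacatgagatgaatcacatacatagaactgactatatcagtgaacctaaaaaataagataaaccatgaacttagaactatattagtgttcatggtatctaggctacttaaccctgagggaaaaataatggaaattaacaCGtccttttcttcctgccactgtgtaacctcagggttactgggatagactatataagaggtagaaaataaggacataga
Promoters were matched for 55 of the 89 protein-coding genes. The median number of CG in 300 bases of these 55 was 5, beside 7 for 25748 autosomal promoters. Their median GC content was 47.7%, beside 53%, and 15 of them (27.3%) had at least 10 CG, beside 44.5%. No protocadherin was among the 55, although protocadherins had the most kept TSS of the families counted above. The values thus describe the matched promoters only, and the CG content of kept protocadherin promoters was not tested.

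In base composition, kept bins lay between the bins gained at 12 months and the rest of the genome. Their GC content was 39.6%, compared to 40.2% for the SD 3m state 7 bins lost in both groups of 12 months, 37.3% for the bins gained in both, 41.2% for bins in state 8 in all groups and 41.9% for all autosomal bins. Kept bins were lower in GC than all bins on each of the 19 autosomes and higher than gained bins on each. The ratio of observed to expected CpG was 0.175, compared to 0.199 in lost, 0.148 in gained and 0.194 in all bins, and kept bins were above gained bins on 18 of 19 autosomes. Bases that the assembly marks as repeats made up 45.0% of kept bins, 44.3% of lost, 41.8% of gained and 33.5% of all bins. They exceeded the share in all bins on all 19 autosomes, but that in lost bins on 11 of 19.

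Single stretches varied widely around these values. Among 3923 kept stretches of at least 1 kb, GC content had quartiles of 36.2% and 41.1% and extremes of 26.9% and 81.8%, and repeats had quartiles of 26.98% and 62.4%. Gene bodies held 30.4% of kept bases, 27.4% of lost, 13.9% of gained and 41.5% of all, and 59.8% of kept bins lay outside annotated genes. Bins within 2 kb of a TSS made up 2.01% of kept, 4.60% of lost, 0.906% of gained and 3.85% of all bins. By location, the kept bins in Zfp genes had 37.1% repeats and those outside genes 48.8%.

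Sequence with copies elsewhere in the assembly was more frequent in kept than in gained bins. Of sampled 50-base windows, the length of a read, 85.9% occurred once in the assembly in kept bins, 88.0% in lost, 91.8% in gained, 81.2% in bins of state 8 in all groups and 89.4% in all bins. Kept bins were above gained bins in this share on 1 of 19 autosomes. The authors removed reads with a mapping quality below 1, which touches copied sequence first. In the kept bins of Zfp genes the share was 75.5%, and in those of clustered protocadherins 95.3%. At least 90% of the windows occurred once in 83399 of the 118487 kept bins. Counting only these bins, 148 of 406 Zfp genes (36.5%) had a kept bin, beside 2.85% of all genes. A gene counts with 1 such bin, so the count does not give the part of kept Zfp sequence in such bins. Kept bins within 10 kb of an unassembled base made up 1.06% of all kept bins, beside 0.199% of all bins with assembled bases.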

How the data were processed

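ChIP-seq reads of 50 bases from the livers of 108 libraries were aligned by the authors to mm10 with BWA (0.6.2-r126), and reads that were unmapped, duplicate or outside chromosomes 1 to 19 and X were removed with SAMtools (0.1.18), per the methods and the submitters' processing notes. The authors merged the libraries of a group and trained ChromHMM for 8 states. The deposited values are thus 1 state label for each bin of 200 bp, and neither a count, a signal nor a score. Groups were taken from the sample labels. SD 6m was not analysed here.

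From the labels, autosomal bins in state 7 in each of the groups SD 3m, SD 12m, CR 12m were merged into stretches and joined to the RefSeq annotation of GRCm38.p6 (46709 autosomal genes, 24963 autosomal TSS of the longest curated transcript). The bins of all 20 chromosomes ended where the whole bins of this assembly end. Windows of 50 bases, 4 per bin, were looked up in the whole assembly for all kept, lost and gained bins and for 200000 autosomal bins drawn at random, which give the values of the other bins. Python 3.11.15, numpy 2.4.6, pandas 2.3.3, scipy 1.17.1, numba 0.67.0 and matplotlib 3.10.9 were used, and the functions were tested on a simulated segmentation.

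The members and the gene lists were chosen with earlier results of these data known. Genes were named by rule as those of the 10 longest stretches, the 15 protein-coding genes with the most kept bases, the 10 of at least 10 kb with the largest kept share, the 15 kept TSS in the longest stretches, and up to 3 per gene list. Sequences were named as the middles of the longest stretches outside chromosome 18 and the most over-represented words. Other genes were chosen after their values were seen, as were the prolactin, Pramel and imprinted gene lists, the zinc finger genes by product and the 84-base period. Of 46 Pramel genes, 1 (2.17%) had a kept bin, beside 3.01% of all genes. Alternatives were a minimum stretch length, chromosome X, the core of SD 3m stretches, no longest stretches, unique bins only, windows of 10 kb, bridged gaps and protein-coding genes only.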

Additional observations from a re-analysis of the deposited data

Results flagged for a closer look

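Chromosome X lies outside the autosomal rule, and the same label was found there. On chromosome X, 3632 bins (0.425% of its bins) were in state 7 in all 3 groups, and they were singled out because they belong to no comparison of the report. They were 29.9% (Wilson 95% interval 29.1 to 30.7) of the SD 3m state 7 bins of this chromosome, compared to 50.2% on the autosomes, and formed 178 stretches of up to 44.6 kb. Of the 10 Zfp genes of chromosome X, 2 had such bins, the neighbours Zfp182 with 68.8% of the gene and Zfp300 with all of it. F8, the gene of clotting factor VIII, had 8400 bp (3.96%). Repeats made up 54.9% of these bins, and their GC content was 38.9%. The difference between chromosome X and the autosomes was not tested.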

How the results depend on the processing

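No paired analysis was possible because each group has 1 segmentation of merged libraries. No value can be set against the spread between mice. Of 79 values under an alternative, 30 stayed within 1.5 times (counts) or within the 95% interval. The other 49 left an interval that is narrow because it counts bins, bases or stretches. The cause was not tested where no alternative's construction gives it. The share of SD 3m state 7 kept in both groups of 12 months (50.2%) was 49.4% with stretches of at least 1 kb only, 49.2% with chromosome X, 60.1% in the core of SD 3m stretches, 46.7% without the longest 1% of stretches, 47.9% in unique bins and 52.3% in 10 kb windows. With chromosome X, in the core and in 10 kb windows, the share kept was 71.7%, 80.0% and 73.1% in SD 12m (72.6%) and 51.8%, 62.3% and 54.4% in CR 12m (52.8%). With stretches of at least 1 kb only, the medians were 3600 bp for kept stretches, 5400 bp in SD 3m and 7600 bp in CR 12m, GC content was 39.58%, repeats 44.98%, unique windows 85.73% and gene bodies 30.53%. In the core, GC content was 39.83%, the CpG ratio 0.174, repeats 44.82%, unique windows 84.81%, gene bodies 32.97% and the share near a TSS 1.904%. Without the longest 1%, these were 39.45%, 0.1737, 45.52%, 87.51%, 28.63% and 1.563%. In 10 kb windows they were 40.25%, 0.1863, 46.12%, 80.91%, 35.06% and 3.051%. In unique bins, GC content was 38.93%, the CpG ratio 0.1612, repeats 36.33%, gene bodies 30.33% and the share near a TSS 1.909%. With chromosome X, repeats were 45.24%, unique windows 85.71% and gene bodies 29.79%. With protein-coding genes only, gene bodies held 28.17% and 1.646% of bins were near a TSS. Of the alternatives added after the data were seen, the share of Zfp genes with a kept bin was between 33.5% (without the longest 1%) and 38.8% (without chromosome 7). The share of bins with an 84-base period that were kept was 36.3% when 50% of bases had to match, 48.9% with 70%, and 42.1% without the longest 1%.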
